A study of Mus musculus with 8 samples.

Results

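Vitamin C and L-proline were set directly against each other in mouse embryonic stem cells by comparing the DNA methylation of 4 reduced representation bisulfite sequencing (RRBS) libraries, paired by day. The members were the CpGs on chromosomes 1 to 19 with at least 10 reads in all 4 libraries, which were 654277 of the 1002817 autosomal CpGs listed in any of the 8 libraries of the series. They made up 87.5% of the autosomal CpGs listed for vitamin C on day 2 and 84.1% on day 5, and 84.3% and 78.5% of those listed for L-proline on the same days. The vitamin C cells received 500 µM vitamin C and the L-proline cells 1 mM L-proline. Both were 129/SvP embryonic stem cells seeded sparsely in FBS/LIF, that is serum plus leukaemia inhibitory factor, which sustains self-renewal, and were collected on day 2 or day 5. The series also holds cells given both supplements and untreated cells, each on the same days, which were used here to place the levels of the compared libraries. Each treatment and day had 1 library, and the labels name no culture, clone or passage, so no group has a replicate and the day pairs are the only spread available.

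DNA methylation at CpGs is written by DNMT enzymes, copied when DNA replicates, and lost either by failure of that copying or after oxidation by TET enzymes. Vitamin C keeps the iron of these TET oxidases in its active, reduced form. L-proline is an amino acid known to move cultured mouse embryonic stem cells towards a primed, epiblast-like state, and the study's title sets the pair up as antagonists in pluripotency. In RRBS, a fragment set rich in CpG islands is sequenced after bisulfite treatment, and cytosines that resist conversion are scored as methylated. The method does not separate 5-methylcytosine from 5-hydroxymethylcytosine. A percentage pools the alleles of all cells in a culture, so fewer cells with a methylated site and less methylation in each cell cannot be told apart.

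The sequences that follow are promoters on which the compared libraries differed, and 1 on which they lay within 10 points of each other. Each is a window from 250 bases before to 50 after a RefSeq transcript start, read from RefSeq's GRCm38.p6 sequence on the strand of the gene and located on the mm9 coordinates of the deposited calls by the spacing of its CpGs. CpGs measured in all 4 libraries stand in capitals. Hormad1 and Sycp1, which encode proteins of the meiotic chromosome axis and of the synaptonemal complex, are shown for the largest differences among the listed germline genes. Rpl39l, a ribosomal protein paralogue of the testis, Sohlh2, a transcription factor of early germ cells, and Hoxd12, a homeobox gene of limb patterning, are shown for called losses. Loss and gain mean lower and higher methylation with vitamin C than with L-proline, not a change from untreated cells. Fgf4, a growth factor expressed by naive embryonic stem cells, is shown as an unmethylated promoter in both states.
Hormad1, chr3:95363349-95363648, plus strand: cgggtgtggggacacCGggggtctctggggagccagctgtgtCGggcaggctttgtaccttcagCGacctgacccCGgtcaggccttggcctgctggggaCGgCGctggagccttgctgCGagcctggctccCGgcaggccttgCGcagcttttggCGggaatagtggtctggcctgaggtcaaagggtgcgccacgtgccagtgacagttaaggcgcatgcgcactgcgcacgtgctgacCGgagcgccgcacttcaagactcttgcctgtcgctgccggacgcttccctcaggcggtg
Sycp1, chr3:102739974-102740273, minus strand: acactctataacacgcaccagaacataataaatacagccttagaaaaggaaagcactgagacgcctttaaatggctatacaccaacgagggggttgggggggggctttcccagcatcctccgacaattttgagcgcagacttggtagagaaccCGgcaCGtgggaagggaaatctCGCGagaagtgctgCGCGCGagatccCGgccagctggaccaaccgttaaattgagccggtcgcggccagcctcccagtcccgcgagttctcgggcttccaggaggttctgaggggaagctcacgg
Rpl39l, chr16:10170071-10170370, plus strand: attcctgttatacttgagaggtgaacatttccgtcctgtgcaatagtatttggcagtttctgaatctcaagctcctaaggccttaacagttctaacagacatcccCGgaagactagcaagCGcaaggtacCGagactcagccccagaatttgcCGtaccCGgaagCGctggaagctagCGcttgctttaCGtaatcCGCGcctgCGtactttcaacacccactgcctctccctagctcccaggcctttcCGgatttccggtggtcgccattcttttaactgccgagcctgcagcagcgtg
Sohlh2, chr3:54985716-54986015, plus strand: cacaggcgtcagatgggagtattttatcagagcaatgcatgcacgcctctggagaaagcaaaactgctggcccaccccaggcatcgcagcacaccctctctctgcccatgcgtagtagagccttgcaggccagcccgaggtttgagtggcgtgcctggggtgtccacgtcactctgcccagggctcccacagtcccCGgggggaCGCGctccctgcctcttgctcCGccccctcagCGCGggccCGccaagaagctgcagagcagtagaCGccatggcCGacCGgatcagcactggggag
Hoxd12, chr2:74512820-74513119, plus strand: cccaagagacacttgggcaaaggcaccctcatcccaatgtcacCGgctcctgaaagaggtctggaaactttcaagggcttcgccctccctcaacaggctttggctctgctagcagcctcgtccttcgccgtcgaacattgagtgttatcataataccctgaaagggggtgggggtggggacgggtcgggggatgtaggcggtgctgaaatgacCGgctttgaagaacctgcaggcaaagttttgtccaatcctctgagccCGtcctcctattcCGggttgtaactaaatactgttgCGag
Fgf4, chr7:152047041-152047340, plus strand: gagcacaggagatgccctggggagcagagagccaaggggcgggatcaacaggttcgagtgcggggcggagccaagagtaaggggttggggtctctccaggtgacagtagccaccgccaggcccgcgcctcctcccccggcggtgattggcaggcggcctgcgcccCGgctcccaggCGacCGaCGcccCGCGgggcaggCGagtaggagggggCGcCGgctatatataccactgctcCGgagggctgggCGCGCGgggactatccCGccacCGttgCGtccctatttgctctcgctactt

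The vitamin C libraries were less methylated than the L-proline libraries on both days. Mean CpG methylation on day 2 was 17.8% with vitamin C and 22.6% with L-proline. On day 5 it was 17.1% with vitamin C and 25.5% with L-proline. The differences were -4.79 and -8.37 percentage points, a mean of -6.58 ± 2.53 (SD, n = 2 pairs). Over the pair of days flipping signs in an exact permutation test, two-sided, gave p = 0.5, the smallest value that 2 pairs allow. Over pooled reads, methylation on day 2 was 12.8% with vitamin C (95% Wilson interval 12.81 to 12.84) and 18.4% with L-proline (18.43 to 18.46). On day 5 it was 12.1% with vitamin C (12.09 to 12.11) and 21.8% with L-proline (21.75 to 21.78). The vitamin C library was the lower of its pair in either measure. Median coverage was 31 and 32 reads in the vitamin C libraries on days 2 and 5, and 37 in both L-proline libraries, with totals of 25112848 to 30775717 reads over these CpGs. Reads counted as methylated on lambda sequence, usually added as an unmethylated control, were 0.317% and 0.504% with vitamin C, and 0.475% and 0.490% with L-proline, over 842 to 7146 reads.

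The libraries differed at both ends of the scale. CpGs at 80% or more made up 9.95% and 9.03% of CpGs with vitamin C on days 2 and 5, against 17.1% and 20.3% with L-proline. Fully methylated CpGs were 1.69% and 1.37% of CpGs with vitamin C, against 2.61% and 5.80% with L-proline. At the lower end, CpGs under 10% made up 72.5% and 73.5% with vitamin C and 68.8% and 65.9% with L-proline. Most CpGs of this assay were thus near 0 in both states, and 196316 of them had no methylated read in any of the 4 libraries.

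Against the rest of the series, the compared libraries formed the ends of the scale on both days. Over the 616929 autosomal CpGs listed in all 8 libraries, mean methylation on day 2 was 16.8% with vitamin C, 18.3% with both supplements, 21.3% with L-proline and 19.07% in untreated cells. The untreated level thus lay at 50.1% of the way from vitamin C up to L-proline, and that of cells with both supplements at 32.8%. On day 5 mean methylation was 16.1% with vitamin C, 17.9% with both, 24.0% with L-proline and 21.3% in untreated cells. Untreated cells then lay at 65.2% of the gap above vitamin C, and cells with both supplements at 22.1%. Vitamin C was therefore the farther from untreated cells on day 5, while on day 2 both states stood almost equally far from them. These positions have 1 library each and no test.

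**Figure D1:**
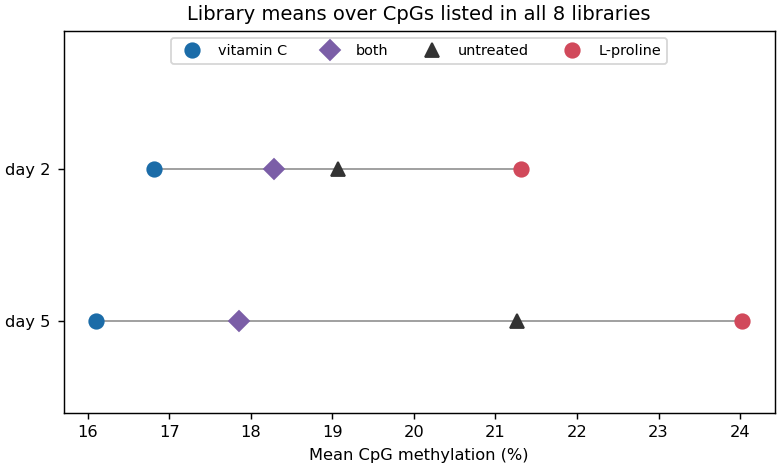
Mean CpG methylation in percent of each library (horizontal axis) on day 2 and day 5 (vertical axis), over the CpGs listed in all 8 libraries, with 1 point per library. On both days vitamin C is the lowest point and L-proline the highest, and the gap is wider on day 5, from 16.1% with vitamin C to 24.0% with L-proline.

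Summing reads over tiles of 1 kb that held at least 3 of the CpGs gave 53838 tiles. The median tile was 21.2% methylated with vitamin C on day 2 and 43.1% with L-proline, and 17.01% with vitamin C on day 5 and 59.8% with L-proline. The median of the tile differences was smaller, at -5.00 points on day 2 and -9.92 on day 5, since many tiles were near 0 in both states. On day 2 the differences ran from -71.6 to 37.8 points, with the 5th percentile at -30.6 and the 95th at 0.893. On day 5 they ran from -89.5 to 32.6 points, with the 5th percentile at -49.9 and the 95th at 0.454. The spread was therefore almost wholly on the side of lower methylation with vitamin C. Tiles that were lower by 60 points or more numbered 32 on day 2 and 907 on day 5, and those lower by 40 to 60 points 724 and 5037. Losses of this size were thus more numerous on day 5 than on day 2. Tiles lower by 20 to 40 points numbered 7843 on day 2 and 11256 on day 5. Tiles within 10 points of equality were 63.5% of all tiles on day 2 and 50.03% on day 5. On the other side, 94 tiles on day 2 and 54 on day 5 were higher with vitamin C by 10 to 20 points, and 7 and 6 by 20 to 40 points.

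**Figure D2:**
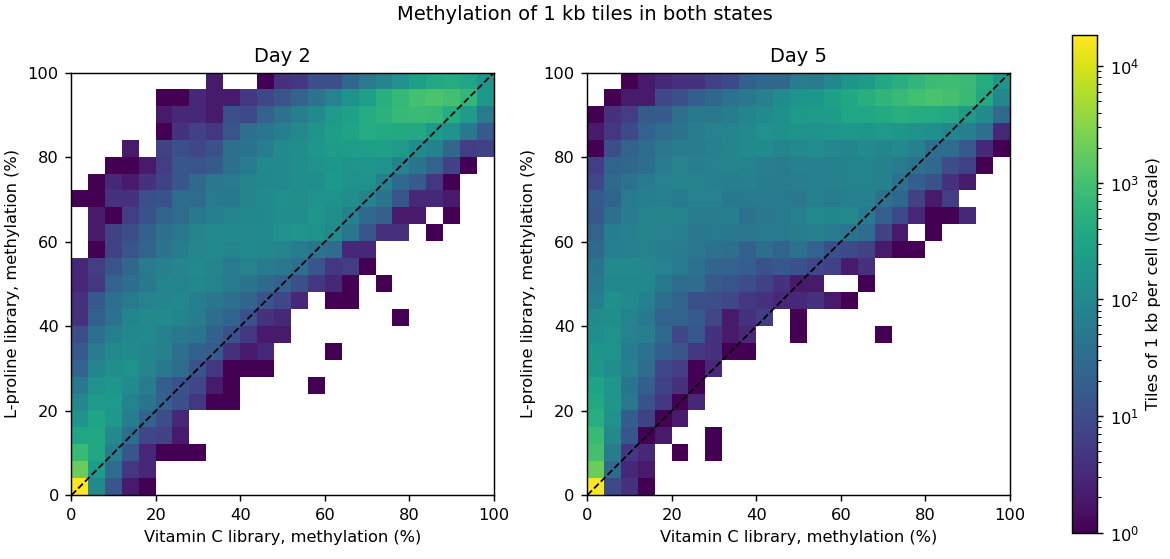
Methylation in percent of each 1 kb tile in the vitamin C library (horizontal axis) and the L-proline library (vertical axis) of day 2 and day 5; the shade gives the number of tiles per cell on a log scale and the dashed line marks equal levels. Nearly all tiles outside the lower left corner lie above the line, and on day 5 they reach the upper left corner, where 1501 tiles were at 80% or more with L-proline and under 40% with vitamin C.

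The direction was shared by both days in most tiles. Methylation was lower with vitamin C on both days in 40181 tiles (74.6%) and higher on both days in 2682 (4.98%). Methylation was lower with vitamin C by at least 20 points on both days in 7105 tiles (13.2%), and by at least 40 points on both days in 505. In the other direction, 6 tiles were higher with vitamin C by 10 points or more on both days. The differences of day 2 and day 5 had a Pearson r of 0.707 and a Spearman rho of 0.743 over 53838 tiles, and 0.528 and 0.537 over the 14040 tiles at 20 to 80% in untreated cells, both bounds included. These correlations are descriptions across tiles, which share libraries and are not replicates. The day 5 difference was the lower of the pair in 72.2% of tiles.

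In limma's moderated test, with terms for treatment and day, 13759 tiles were lower with vitamin C (25.6% of the tiles tested) and 0 were higher (0.0%). Calls needed an adjusted p (Benjamini-Hochberg) under 0.05 and a mean difference of at least 10 points. At the adjusted p alone, without the minimum of 10 points, 16384 tiles were lower and 72 higher in limma's test. At an unadjusted p under 0.05 in that test, 24125 tiles were lower and 210 higher. The called tiles had a median difference of -27.3 points, with a 5th percentile of -47.2 and a 95th of -12.3, and 13718 of them were lower on both days. A fit with 4 libraries leaves 1 residual degree of freedom per tile, so the spread is largely borrowed from other tiles. The count was 0 when percent methylation was fitted, 249 lower and 17 higher when libraries were centred to one median, and 0 in a fit of all 8 libraries without the day 5 library of either treatment. The number of calls thus depended on the library-wide shift, on the fitted scale and on each day 5 library. The centring removes library medians, on the log2 scale of methylated over unmethylated reads, of -1.85 and -2.23 with vitamin C on days 2 and 5, and -0.40 and 0.56 with L-proline. The minimum of 10 points was still applied to the differences before centring, so few tiles could be called higher. At the adjusted p alone, the centred limma fit had 252 tiles lower and 7183 higher.

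At single CpGs, Fisher's exact test with Benjamini-Hochberg adjustment compared the libraries of a day, not the conditions, and a call also needed a difference of at least 20 points. On day 2, 18109 CpGs were lower with vitamin C (2.77%) and 128 higher (0.0196%). On day 5, 71500 were lower (10.9%) and 117 higher (0.0179%). The called losses had median differences of -42.4 points on day 2 and -44.5 on day 5. CpGs called lower on both days numbered 10502, which was 58.0% of the day 2 calls and 14.7% of the day 5 calls. The CpGs called lower on day 2 were also lower on day 5 in 96.1% of cases, with a mean difference of -36.9 points. The CpGs called higher did not recur in this way, as 3 were called higher on both days, and the mean day 5 difference of the day 2 gains was -5.27 points. As a background, all 76609 CpGs at 20 to 80% in untreated cells, called or not, averaged -34.4 points on day 5. The day 5 mean of the day 2 losses was thus near that of intermediate CpGs in general.

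The size of the difference followed the level in untreated cells, whose libraries do not enter it. Tiles at 40 to 60% in untreated cells (3767 tiles) averaged 36.3% with vitamin C and 56.9% with L-proline on day 2, and 32.8% with vitamin C and 70.3% with L-proline on day 5. Their differences were -20.5 ± 12.1 and -37.5 ± 17.9 points (SD over tiles). Tiles at 20 to 40% averaged 16.8% with vitamin C and 34.996% with L-proline on day 2, and 13.9% with vitamin C and 52.8% with L-proline on day 5. Tiles at 10 to 20%, which lie close to the floor, averaged 7.13% with vitamin C and 18.05% with L-proline on day 2, and 5.52% with vitamin C and 31.4% with L-proline on day 5. Tiles at 5 to 10% stood apart as well, with 2.45% for vitamin C and 17.5% for L-proline on day 5. At the upper end, tiles at 80 to 90% differed by -12.7 ± 9.76 points on day 2 and -18.3 ± 11.3 on day 5. Tiles at 95% or more averaged 88.4% with vitamin C and 94.7% with L-proline on day 2, and 87.4% with vitamin C and 95.7% with L-proline on day 5. Tiles under 5% averaged 0.639% with vitamin C and 2.27% with L-proline on day 5, a difference of -1.63 ± 3.88 points.

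**Figure D3:**
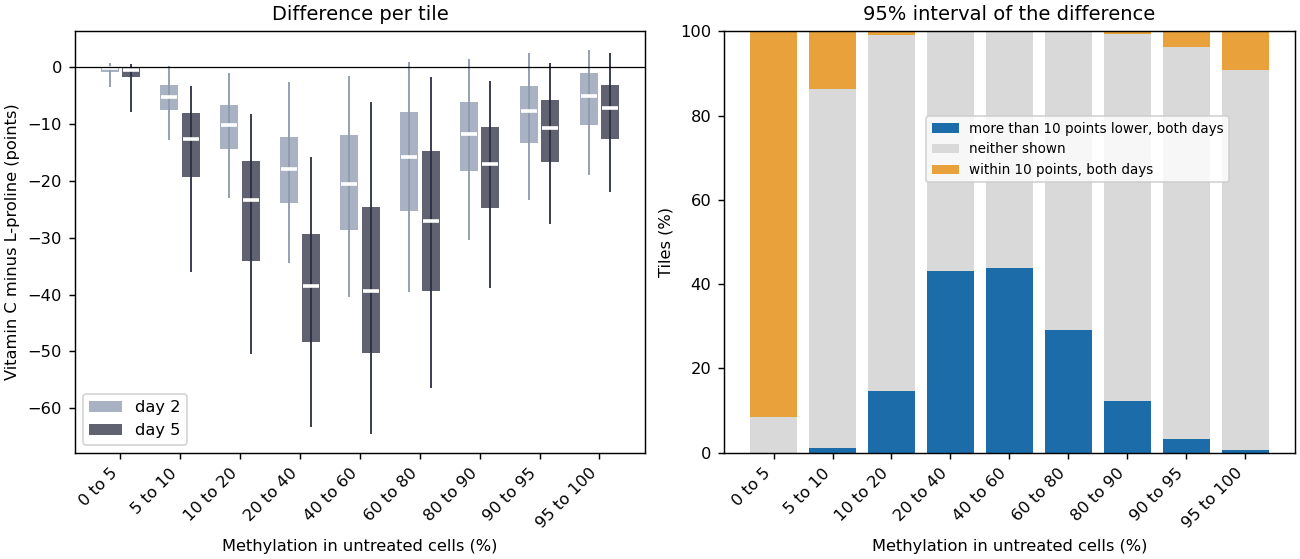
Left, the difference in methylation between vitamin C and L-proline in percentage points per 1 kb tile (vertical axis) by methylation in untreated cells (horizontal axis), with the box from the 25th to the 75th percentile, the white line at the median and the whisker from the 5th to the 95th. Right, the share of tiles in percent whose 95% interval of the difference lay wholly below -10 points or wholly within 10 points on both days; losses peak at 20 to 60% and 91.4% of the tiles under 5% lay within 10 points.

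Tiles with few CpGs differed most, and they were also the more methylated ones. Tiles with 3 to 5 CpGs (29121 tiles, 62.5% in untreated cells) differed by -12.6 points on day 2 and -21.2 on day 5. Tiles with 6 to 10 CpGs (36.5% in untreated cells) differed by -8.74 and -16.1 points. Tiles with 41 or more CpGs (2837 tiles, 0.833% in untreated cells) differed by -0.242 and -0.596 points. Among tiles at 40 to 80% in untreated cells the differences lay closer together, at -18.0 and -30.2 points at 3 to 5 CpGs (8706 tiles) and -19.1 and -36.1 points at 11 to 20 CpGs (226 tiles). Between them, tiles with 6 to 10 CpGs differed by -19.2 and -33.4 points. In this class the order over 3 to 20 CpGs was thus reversed on day 5, with the smallest difference at 3 to 5 CpGs. Over the 19 autosomes, the mean CpG difference ranged from -5.32 to -4.40 points on day 2 and from -9.13 to -7.65 on day 5. Adjacent tiles moved alike, with a Pearson r of 0.476 over 10890 pairs and 0.347 over the 339 pairs with both tiles at 40 to 80%, given as descriptions across tiles.

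In tiles with a wide gap, untreated cells and cells with both supplements mostly lay inside it. On day 2, 8516 tiles that were at least 20 points lower with vitamin C averaged 41.5% with vitamin C, 54.4% with both, 70.1% with L-proline and 57.8% in untreated cells. On day 5, 16881 such tiles averaged 38.5% with vitamin C, 48.9% with both, 74.8% with L-proline and 62.4% in untreated cells. The untreated level lay between the levels with vitamin C and L-proline in 89.5% of these tiles on day 2 and 90.1% on day 5, and the level with both supplements in 92.8% and 84.7%. Since a wide gap chose these tiles, other libraries tend to fall inside it, and these shares are a description. The 5800 tiles with a gap of at least 40 points on day 5 averaged 25.3% with vitamin C, 40.3% with both, 76.1% with L-proline and 57.3% in untreated cells.

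The 5 largest losses were tiles at 55.5% to 77.3% in untreated cells where that level could be read. A tile of 5 CpGs at chr10:75328001-75329000 had 2.70% methylation with vitamin C and 68.3% with L-proline on day 2, and 3.41% with vitamin C and 89.6% with L-proline on day 5, over at least 74 reads in each library. Its mean difference was -75.9 points, and limma's adjusted p was 4.7659e-06. The tile at chr16:78474001-78475000 had 26.04% with vitamin C and 88.2% with L-proline on day 2, and 15.5% with vitamin C and 99.3% with L-proline on day 5 (limma adjusted p = 1.98734e-05). In both tiles the libraries stood far apart on day 2 and farther on day 5. The most deeply read of the 5, with at least 223 reads over 9 CpGs in each library, lay at chr5:24354001-24355000, 5822 bases from the located promoter of Rheb, a GTPase that activates mTORC1. It had 15.7% with vitamin C and 75.9% with L-proline on day 2, and 13.5% with vitamin C and 90.2% with L-proline on day 5 (limma adjusted p = 0.000228674). The other two, at chr2:169349001-169350000 and chr1:60848001-60849000, differed by -69.7 and -69.3 points in the mean of the days.

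Gains with vitamin C were few and small beside these losses. The largest, at chr1:76176001-76177000, had 50.7% with vitamin C and 45.1% with L-proline on day 2, and 70.9% with vitamin C and 38.2% with L-proline on day 5. Its mean difference was 19.1 points, and limma's adjusted p was 0.258. The next 4 gains, of 15.0 to 17.6 points, had limma adjusted p-values of 0.116 to 0.340, so none of the 5 passed.

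Tiles that differed by less than 10 points were chosen by the interval of the difference, since a p that misses its threshold does not show equality. The 95% Newcombe interval covers counting error only. It may be too narrow, since a read that spans several CpGs counts once for each. This interval lay within 10 points on both days in 18816 tiles (34.9%). It lay wholly below -10 points on both days in 6789 tiles (12.6%), and neither was shown for 28233 (52.4%). Most of the tiles shown to lie within the margin were unmethylated, as 18394 of the 18816 were under 10% in all 4 libraries. Of the 14031 tiles at 20 to 80% in untreated cells 21 (0.150%) lay within 10 points, and 5077 (36.2%) lay wholly below -10. In that class 4065 tiles had intervals narrow enough to have been placed within the margins. Of the 3767 tiles at 40 to 60%, 0 lay within 10 points, among 908 with intervals narrow enough. Among the best covered of them, with at least 300 reads summed over CpGs in every library, 0 of 186 tiles lay within 10 points. Of these 186, 130 (69.9%) lay wholly below -10.

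Highly methylated tiles lay within the margin more often than intermediate tiles. At 80% or more in untreated cells, 356 of 15158 tiles (2.35%) lay within 10 points on both days, and 31 of 163 (19.02%) where every library had at least 300 reads. Of 9369 tiles at 90% or more with L-proline on both days, 842 were also at 90% or more with vitamin C on both days. Tiles intermediate in all 4 libraries, at 20 to 80%, numbered 4921 (9.14%). At single CpGs, where reads are fewer, 98223 (15.0%) lay within 10 points on both days, and 98127 of these were under 10% in untreated cells.

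The most deeply read tiles within the margin were read far more than the median tile, whose shallowest library had 126 reads. At 80% or more in untreated cells, a tile of 3 CpGs at chr2:98506001-98507000 had 88.6% with vitamin C and 92.1% with L-proline on day 2, and 89.1% with vitamin C and 93.9% with L-proline on day 5. Its CpGs were listed with 64297 to 65509 reads per library and the highest coverage of any compared CpG was also 65509, so the depths of this tile sit at the top of the listed range and may be capped rather than full read counts. The tile at chr7:7230001-7231000 had 78.0% with vitamin C and 82.9% with L-proline on day 2, and 77.1% with vitamin C and 83.1% with L-proline on day 5. It overlaps the located promoter of Vmn2r29, a vomeronasal receptor of a large gene family. Both were lower with vitamin C by amounts inside the margin, with differences of -3.53 to -5.97 points. Whether reads of repeated sequence contributed to these tiles was not tested.

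No tile at 40 to 60% in untreated cells could be named as within the margin, so the range was widened to 20 to 80%. There, the tile at chr7:89920001-89921000 had 61.5% with vitamin C and 65.3% with L-proline on day 2. On day 5 it had 60.8% with vitamin C and 63.2% with L-proline. Each library had at least 7678 reads there over 21 CpGs, against 126 in the shallowest library of the median tile. Whether reads of repeated sequence contributed to this tile was not tested. The intervals of this tile ran from -5.07 to -2.59 points on day 2 and from -3.90 to -0.923 on day 5. They lay below 0 but within the margin. The tile at chr11:22872001-22873000, with 23 CpGs, had 25.04% with vitamin C and 22.3% with L-proline on day 2, and 31.2% with vitamin C and 30.1% with L-proline on day 5. It holds the located start of Zrsr1, an imprinted retrogene methylated on the maternal allele. Its intervals ran from -1.74 to 7.19 points on day 2 and from -4.14 to 6.26 on day 5. Over the 5 CpGs of the promoter window of Zrsr1 itself the libraries were farther apart, with 13.9% for vitamin C and 22.8% for L-proline on day 2, and 15.0% with vitamin C and 35.9% with L-proline on day 5. The tile at chr1:53574001-53575000 was level too, with 37.6% for vitamin C and 37.4% for L-proline on day 2, and 42.4% with vitamin C and 41.2% with L-proline on day 5.

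The located promoters were mostly unmethylated in both states. Locating a window needed at least 8 listed CpGs in its 300 bases, so promoters poor in CpGs were left out. Of 32851 RefSeq promoter windows, 6814 could be located at a single place by the spacing of their CpGs. In all, 5763 genes had a window with at least 3 measured CpGs. For 1151 of these genes the window shares CpGs with that of another gene, so the promoters are not all separate. The methylation of 5431 of the 5763 promoters was under 5% in all 4 libraries, and 5535 (96.0%) lay within 10 points on both days. Their median difference was -0.100 points. In limma's test with Benjamini-Hochberg adjustment over the 5763 promoters, 47 were lower with vitamin C (0.816%) and 0 higher (0.0%). At an unadjusted p under 0.05 in this test, 603 were lower and 148 higher. At the adjusted p alone, without the minimum of 10 points, 116 were lower and 1 higher. The promoter fit gave every promoter the same standard error, 0.797 on the log2 scale. No promoter's own spread thus entered its p, which ranks promoters by log2 ratio and not by points. Where a promoter carried methylation, vitamin C was nearly always the lower state. Of the 50 promoters at 20% or more in untreated cells, 49 were lower with vitamin C on both days, 12 were called and the median difference was -23.2 points. Of the 132 at 5 to 20%, 130 were lower on both days, 30 were called and 21 lay within 10 points.

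The 12 largest called promoter losses were of several kinds. Atcayos, a transcript opposite Atcay, had 18.7% with vitamin C and 57.2% with L-proline on day 2, and 19.3% with vitamin C and 82.3% with L-proline on day 5. Its mean difference of -50.7 points was the largest (limma adjusted p = 0.00590962). Mir1a-1hg, the host transcript of a muscle microRNA, had 14.5% with vitamin C and 52.0% with L-proline on day 2, and 13.1% with vitamin C and 62.7% with L-proline on day 5. Hoxd12 had 8.41% with vitamin C and 29.0% with L-proline on day 2, and 5.02% with vitamin C and 66.9% with L-proline on day 5 (limma adjusted p = 0.00262734). At Hoxd12 the level with L-proline was therefore far higher on day 5 than on day 2, while vitamin C stayed under 10% on both days. The windows of Atf7ip, a partner of the histone methyltransferase SETDB1, and of the opposed transcript Gm44140 share their CpGs, with 6.09% for vitamin C and 42.1% for L-proline on day 2, and 1.17% with vitamin C and 40.7% with L-proline on day 5. C1qtnf2, a secreted protein of the C1q and TNF related family, had 9.29% with vitamin C and 21.4% with L-proline on day 2, and 7.22% with vitamin C and 58.2% with L-proline on day 5. Plut, a noncoding transcript beside Pdx1, had 24.0% with vitamin C and 53.2% with L-proline on day 2, and 10.8% with vitamin C and 64.4% with L-proline on day 5.

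Genes of the germline were among the called promoters. Sohlh2 had 4.04% methylation with vitamin C and 27.5% with L-proline on day 2, and 5.59% with vitamin C and 47.0% with L-proline on day 5, a mean difference of -32.4 points (limma adjusted p = 0.00560346). Rpl39l had 13.6% with vitamin C and 41.9% with L-proline on day 2, and 3.97% with vitamin C and 43.0% with L-proline on day 5, a mean difference of -33.7 points (limma adjusted p = 0.0111785). All 10 measured CpGs of the Sohlh2 window and all 12 of the Rpl39l window were lower with vitamin C on both days. Gpat2, an acyltransferase of mouse male germ cells that takes part in the piRNA pathway, had 1.33% with vitamin C and 19.9% with L-proline on day 2, and 4.37% with vitamin C and 46.5% with L-proline on day 5. It was called too, though it ranks below the 12 largest and was picked after its values were seen, as were Sohlh2 and Rpl39l for their germline roles.

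The germline list of 27 genes had 8 located members, of which 0 were called (the background was 0.816%), though all 8 were lower with vitamin C on both days, as were 2009 of the 5763 promoters. Their median difference was -16.7 points, with a range of -37.1 to -2.96, beside -0.100 over all 5763 promoters, which are mostly unmethylated. The medians of promoters that carry methylation in untreated cells were -23.2 points at 20% or more and -9.51 at 5 to 20%, and the median of the list lies between them. The counting interval lay below 0 on both days for 6 of the 8, beside 43 of the 50 promoters at 20% or more, 110 of the 132 at 5 to 20% and 330 of all 5763. The median member had 7.87% with vitamin C and 20.5% with L-proline on day 2, and 7.58% with vitamin C and 27.7% with L-proline on day 5. Hormad1 had 25.1% with vitamin C and 50.1% with L-proline on day 2, and 15.0% with vitamin C and 64.1% with L-proline on day 5 (limma adjusted p = 0.0782). Sycp1 had 34.8% with vitamin C and 67.0% with L-proline on day 2, and 44.6% with vitamin C and 81.1% with L-proline on day 5 (limma adjusted p = 0.144). Both were above 10% in every library, and their measured CpGs, 11 in Hormad1 and 8 in Sycp1, were lower with vitamin C at every position on both days.

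The remaining germline promoters were also lower with vitamin C on both days. Mael, a piRNA pathway protein, had 4.20% with vitamin C and 16.6% with L-proline on day 2, and 3.54% with vitamin C and 22.5% with L-proline on day 5 (limma adjusted p = 0.0628). Ddx4, the germ cell RNA helicase Vasa, had 3.90% with vitamin C and 13.7% with L-proline on day 2, and 3.68% with vitamin C and 17.8% with L-proline on day 5. Slc25a31, a testis ADP/ATP carrier, had 25.6% with vitamin C and 43.0% with L-proline on day 2, and 16.1% with vitamin C and 57.8% with L-proline on day 5. Dmrtb1, a transcription factor of spermatogenesis, and Hormad2, a meiotic axis protein, differed by -17.8 and -7.12 points in the mean of the days, and the day 2 interval of Hormad2 included 0. Smc1b, a meiotic cohesin subunit, had no methylated read with vitamin C, against 2.03% on day 2 and 3.88% on day 5 with L-proline. If the reads summed over its CpGs are independent, this allows up to 1.80% on day 2 and 1.11% on day 5. Its difference passed the adjusted p (0.0292 in limma) but not the minimum of 10 points. The letters CACGTG, a palindrome that reads the same on both strands and is known as an E-box, stood in the windows of 5 of the 8 located germline genes, in 2 of the 47 called promoters (4.26%), in 10.9% of the 5763 located promoters and in 7.15% of all 32851 windows. In Hormad1 and Sycp1 they can be read in the printed sequences.

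**Figure D4:**
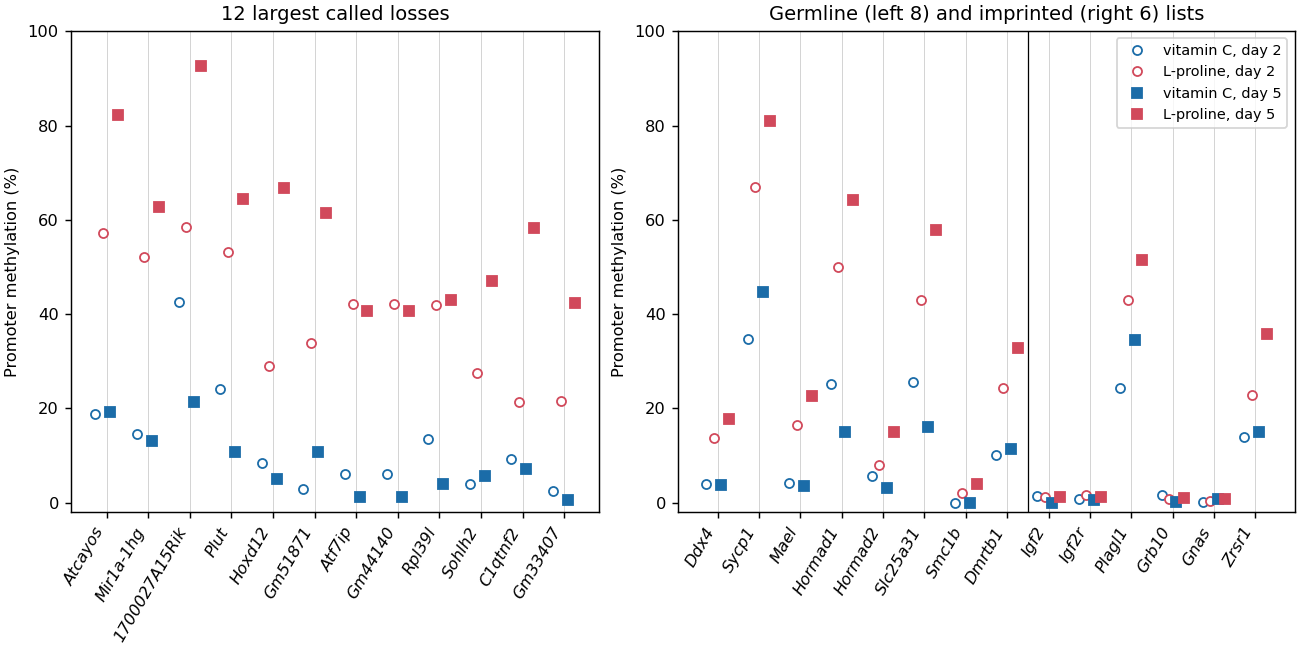
Promoter methylation in percent (vertical axis) in each of the 4 libraries for the 12 largest called losses (left) and for the located members of the germline and imprinted lists (right), with open circles for day 2 and filled squares for day 5. Blue vitamin C points lie below red L-proline points in all 12 losses and all 8 germline genes, and 4 of the 6 imprinted genes lie near 0 in every library.

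**Figure D5:**
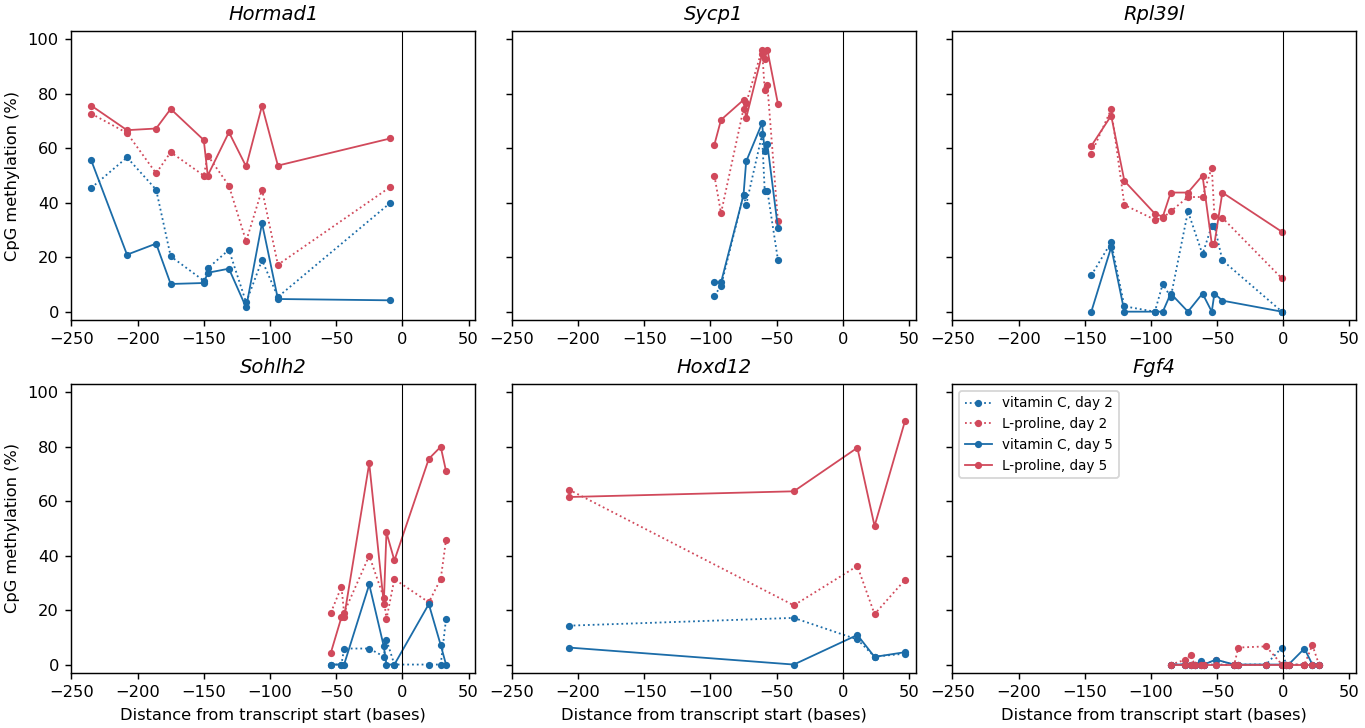
Methylation in percent of each measured CpG (vertical axis) by distance in bases from the transcript start (horizontal axis, start at 0) in the 4 libraries, for the promoters whose sequences are printed. Every measured CpG of Hormad1, Sycp1, Rpl39l, Sohlh2 and Hoxd12 is lower with vitamin C on both days, while those of Fgf4 stay between 0 and 7.14%.

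Within a promoter, the CpGs spread widely around its level. In Hormad1 the CpGs ranged from 3.39% to 56.7% with vitamin C and from 17.2% to 72.7% with L-proline on day 2, and from 1.54% to 55.6% and from 50% to 75.7% on day 5. In Sycp1 they ranged on day 5 from 10.7% to 69.2% with vitamin C and from 61.4% to 96.2% with L-proline. In Hoxd12 the 5 CpGs lay between 0 and 10.9% with vitamin C on day 5 and between 50.9% and 89.5% with L-proline, so the states did not overlap. In Sohlh2, the states overlapped on day 5, with 0 to 29.4% for vitamin C and 4.35% to 80% for L-proline.

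The imprinted list of 26 genes had 6 located promoters, and 4 of these, Igf2, Igf2r, Grb10 and Gnas, were under 5% in all libraries and lay within 10 points. Their windows were at 0.386% to 0.570% in untreated cells, so they do not show whether a methylated imprint stays level. The windows of Plagl1 and Zrsr1 carried methylation, at 43.0% and 27.6% in untreated cells. Plagl1, a zinc finger gene expressed from the paternal allele, had 24.2% with vitamin C and 43.1% with L-proline on day 2, and 34.4% with vitamin C and 51.4% with L-proline on day 5. Its counting interval lay below 0 on both days, as did that of the Zrsr1 window, but limma's adjusted p-values were 0.618 and 0.554. The window of Plagl1 shares CpGs with another located window.

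The located promoters of the pluripotency and methylation genes lay within 10 points on both days, like 96.0% of all 5763 promoters, so these counts are at the background. Located were 4 of the 20 listed naive genes, 5 of the 16 primed genes and 8 of the 13 methylation genes. The other listed promoters were not measured here, so the lists are not described as a whole. All 4 located naive genes, Klf2, Tfcp2l1, Fgf4 and Sox2, lay within 10 points and under 5% in every library. Tfcp2l1, a transcription factor of naive cells, had 0.252% with vitamin C and 0.763% with L-proline on day 2, and 0.397% with vitamin C and 0.328% with L-proline on day 5. The same held for all 5 located primed genes, Fgf5, Dnmt3a, Dnmt3b, Foxa2 and Lef1, where the highest value was 3.03% at Foxa2, an endoderm transcription factor, with L-proline on day 5, against 0.265% with vitamin C. The day 5 interval of Foxa2, from -5.40 to -0.888 points, and the day 2 interval of Fgf4, from -2.54 to -0.132 points, lay below 0 but within the margin. It also held for all 8 located methylation genes, among them the maintenance enzyme Dnmt1 and the oxidases Tet2 and Tet3. Dnmt1 had 1.27% with vitamin C and 0.102% with L-proline on day 2, and 0.664% with vitamin C and 0.168% with L-proline on day 5, and its day 2 interval of the difference ran from 0.419 to 2.22 points. Of the 10 listed two-cell-like genes, 0 could be located.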

How the data were processed

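DNA methylation was measured by RRBS in 8 libraries of 129/SvP mouse embryonic stem cells, 1 per treatment and day, of which 4 were compared. Per the submitters' processing notes, CASAVA, BSMAP 2.88 and the build mm9 were used, in roles not stated. The deposited files list each CpG with the fraction of reads methylated (0 to 1, no normalization stated) and its coverage in reads, with a minimum of 10. Both were made by the authors. The coverage, deposited as another column, was whole for 99.3% to 99.6% of CpGs and was otherwise rounded. Methylated reads were taken as fraction times coverage. How duplicates and incomplete conversion were handled is not stated in the labels.

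Reads were summed over 1 kb tiles with at least 3 CpGs. Percentages were compared with Newcombe intervals (95%), single CpGs with two-sided Fisher's exact tests (adjusted p under 0.05 and at least 20 points), and tiles with limma 3.58.1 in R 4.3.3 on log2 of methylated over unmethylated reads, with a pseudocount of 1 and terms for treatment and day (adjusted p under 0.05 and at least 10 points). Reads were not tagged by molecule in the labels' protocols, so PCR copies may be counted. Summed reads are coverages added over CpGs, so a read that spans several CpGs counts once for each. Intervals, limits and Fisher tests cover counting error only, and intervals and limits of summed reads may be too narrow. The spread behind limma's p-values is the change of the treatment difference between the days, pooled across tiles or promoters. It is not a spread between replicates and may be technical. The procedures were tested on simulated data.

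Named tiles were the 5 largest losses and gains with the same direction on both days and at least 30 reads per library, and the 5 most deeply read within 10 points at 80% or more in untreated cells. A rule for 40 to 60% gave no tile, and a range of 20 to 80% was added. No mm9 annotation was used here. Promoter windows of 300 bases from RefSeq (GRCm38.p6) were located after the files were seen, by requiring the exact spacing of at least 8 listed CpGs. Of the 6814 windows located at a single place, 6806 lay on the chromosome RefSeq names. Where a gene had several windows, the one with the most CpGs was used. Named promoters were the 12 largest called losses with at least 30 reads per library and all located list members. The members and lists were chosen with earlier results of these data known. Python 3.11.15 with scipy 1.17.1 was used for the remaining steps.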

Additional observations from a re-analysis of the deposited data

Results flagged for a closer look

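In 29 of the 53838 tiles the libraries differed by 10 points or more in opposite directions on the days, with a counting interval that excluded 0 on each day. In 26 of these vitamin C was the higher on day 2 and the lower on day 5. The 29 tiles were thinly covered, with a median lowest depth of 54 reads. The 5 with the widest change are given below. The difference between days was not tested, since each day has 1 library per treatment.

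The tile at chr9:65033001-65034000 had 98.2% with vitamin C and 82.6% with L-proline on day 2, and 44.4% with vitamin C and 97.4% with L-proline on day 5, so its difference changed by -68.6 points. The tile at chr18:74330001-74331000 had 63.7% with vitamin C and 33.3% with L-proline on day 2, and 41.8% with vitamin C and 78.1% with L-proline on day 5, a change of -66.7 points.

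The differences of the remaining tiles, all of 3 CpGs like the first pair, also changed sign. On chromosome 4, the tile from 129039001 changed by -64.4 points. It had no methylated read in 57 with vitamin C on day 5, against 43.5% with L-proline. If these reads, summed over its CpGs, are independent, this allows up to 5.26%. The tile on that chromosome from 124317001 changed by -59.8 points, and the tile on chromosome 9 from 36749001 changed by -57.2 points.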

How the results depend on the processing

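The mean CpG difference was negative at every setting tried, from -3.42 points at 30 reads to -8.37 on day 5 alone, and the 10 named losses and gains kept their sign with unweighted CpG percentages. The CpGs kept at higher depth were less methylated, with an L-proline level of 16.0% at 20 reads and 10.6% at 30. Over all compared CpGs that level was 22.6% on day 2 and 25.5% on day 5. CpGs called lower numbered 10592 (day 2) and 39665 (day 5) at 20 reads, 5100 and 17697 at 30 reads, and 445 and 13444 with reads thinned to 20. CpGs called higher numbered 81 and 61, 44 and 24, and 1 and 10 at these settings. A higher minimum tested fewer CpGs, 418585 at 20 reads and 233125 at 30, so those counts do not show a limit from depth. Thinning the same 418585 CpGs to 20 reads lowered their calls. Tiles called lower by limma numbered 249 with centred libraries (17 higher), 5289 with at least 5 CpGs, 8895 with a pseudocount of 0.5 and 0 with percent methylation fitted. The centred calls kept the minimum of 10 points on uncentred differences. At limma's adjusted p alone, 252 tiles were lower and 7183 higher after centring. With all 8 libraries 14725 tiles were lower, and leaving out each compared library in turn gave 0 to 13303 lower and 0 to 5 higher, with 0 lower without either day 5 library. Without the day term 11927 were lower. The median tile difference was -1.64 points with at least 5 CpGs, -9.62 in 2 kb tiles and -6.13 in 500-base tiles, beside -8.43 for the mean of the days. The share of tiles within the margin, 34.9%, was 32.9% with 99% intervals, 48.0% and 28.1% with margins of 20 and 5 points, 57.9% with at least 5 CpGs, and 31.3% and 40.9% in 2 kb and 500-base tiles. The causes were not tested. The libraries were paired by day throughout, and each group has 1 library, so no replicate numbers pair libraries.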
